A study of Homo sapiens with 36 samples.

Results

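The genes described here are 5 components of the plasminogen activation system, *PLAU*, *PLAUR*, *PLAT*, *SERPINE2* and *SERPINB2*, found among the 63677 genes of the count tables by the Ensembl identifier that maps to each symbol. Of the 5 genes, 4 had enough reads to be tested, beside 19180 genes tested in all, and *SERPINB2* did not. The study asked whether changes that IL-1β, a proinflammatory cytokine, brings about in lung cancer cells persist once the cytokine is removed. RNA was sequenced from A549, an established human lung adenocarcinoma line, grown in RPMI medium with 10% serum and split every few days. Cells given IL-1β at 1 ng/ml were collected on days 6, 15 and 21 of exposure, and cells from which IL-1β had been withdrawn after 21 days were collected on days 6, 15 and 30 after withdrawal. Untreated control cells were collected at each of the 6 time points, and each of the 12 groups held 3 libraries. No group carried a genetic change made for the study, and a single cell line was used. The labels call the 3 libraries of a group biological replicates and do not state whether they came from separately started cultures, so the p-values measure the spread between these libraries.

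Plasminogen is an inactive protease made mainly by the liver, and 2 enzymes cut it into plasmin, a protease that dissolves fibrin and degrades matrix proteins. *PLAU* encodes urokinase, the activator that acts mostly at cell surfaces and in tissue, and *PLAT* encodes tissue plasminogen activator, which acts mostly on fibrin. *PLAUR* encodes the membrane receptor that holds urokinase at the cell surface. *SERPINE2* encodes protease nexin 1, a secreted serpin that inhibits thrombin, urokinase and other serine proteases, and *SERPINB2* encodes plasminogen activator inhibitor 2. In carcinoma cells this system is studied for its part in invasion through matrix.

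*PLAU*, *PLAUR* and *SERPINE2* rose together during IL-1β exposure, and *SERPINB2* had almost no reads. Whether these levels relate to motifs before the transcription starts was not tested. The sequences before the starts of these genes are shown for the short motifs of well-known factor families that they hold. Each is the 250 bases upstream of a start in RefSeq (GRCh38.p14 promoter table), placed in GRCh37, the build of the count tables, by an exact match, and written 5′ to 3′ on the strand of the gene. For *PLAU* and *SERPINE2*, which have 2 starts each in the table, the window holding more GGGCGG is shown, and the other held none of the motifs for *PLAU* and 1 GGGCGG for *SERPINE2*. *PLAT*, which also rose, had no entry in the table and is not shown. Capitals mark TGANTCA, the core of AP-1 sites, GGGCGG, the core of Sp1 sites, on either strand, and TATAAA, the TATA box.
PLAU, GRCh37 chr10:75670640-75670889, plus strand: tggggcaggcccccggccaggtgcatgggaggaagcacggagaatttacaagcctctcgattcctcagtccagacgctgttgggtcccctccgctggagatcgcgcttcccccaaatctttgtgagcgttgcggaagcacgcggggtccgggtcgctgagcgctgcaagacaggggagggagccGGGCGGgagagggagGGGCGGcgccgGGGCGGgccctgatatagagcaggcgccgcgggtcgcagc
PLAUR, GRCh37 chr19:44174322-44174571, minus strand: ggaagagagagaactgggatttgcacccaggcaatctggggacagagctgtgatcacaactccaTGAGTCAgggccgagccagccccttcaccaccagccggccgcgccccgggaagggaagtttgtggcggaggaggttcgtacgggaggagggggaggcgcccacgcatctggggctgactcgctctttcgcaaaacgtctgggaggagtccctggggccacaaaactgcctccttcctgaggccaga
SERPINE2, GRCh37 chr2:224903358-224903607, minus strand: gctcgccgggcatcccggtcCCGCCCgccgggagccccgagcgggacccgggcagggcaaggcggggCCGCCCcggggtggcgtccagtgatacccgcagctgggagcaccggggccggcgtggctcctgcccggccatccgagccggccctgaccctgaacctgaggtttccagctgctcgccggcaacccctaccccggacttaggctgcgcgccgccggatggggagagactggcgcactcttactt
SERPINB2, GRCh37 chr18:61554689-61554938, plus strand: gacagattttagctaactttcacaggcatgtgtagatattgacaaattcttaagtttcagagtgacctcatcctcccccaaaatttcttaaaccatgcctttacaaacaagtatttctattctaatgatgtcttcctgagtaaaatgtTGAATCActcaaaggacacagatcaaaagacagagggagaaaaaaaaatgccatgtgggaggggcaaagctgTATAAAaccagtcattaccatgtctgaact

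The *PLAU* window held GGGCGG 3 times, starting at positions -66, -51 and -40 counted from the start site, and no TGANTCA. The *PLAUR* window held 1 TGANTCA match, TGAGTCA, from -186 to -180, and the *SERPINB2* window held TGAATCA from -102 to -96 and TATAAA from -30 to -25. The *SERPINE2* window held GGGCGG on the opposite strand at -230 and -183. Among 35116 promoter windows of the same length, 6.57% held TGANTCA, 42.6% GGGCGG and 10.7% TATAAA on either strand, with no overlap among the matches printed. The *PLAU* and *SERPINE2* windows were picked by their GGGCGG, so the share of 42.6% over all windows is not a like measure for them. The NF-κB decamer, held by 9.96% of all windows, was not found in the windows of these 4 genes. The matches describe letters in these windows and not bound sites.

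The libraries held 9116032 to 23570026 reads on genes. Counts from mitochondrial genes took 5.61% to 7.75% of the reads on genes in 25 libraries and 11.8% to 24.6% in the other 11, which stood apart. These 11 libraries comprised 6 control and 5 IL-1β libraries, 8 of them were collected after withdrawal, and 8 were replicate 2. Fits without them are given beside the results they touch, and there the control groups of days 6 and 15 after withdrawal hold 1 library each, assumed to vary like the rest. The epithelial markers *KRT8*, *KRT18* and *CDH1* were abundant, and the 5 epithelial markers summed to between 2901 and 7624 CPM (read counts scaled to library size) in control libraries and between 899 and 5142 CPM with IL-1β, while *KRT19* and *EPCAM* were near 0. Of the 4 leukocyte markers reported *CD3E* had no reads, and the list summed to 2.06 to 10.6 CPM in controls and 2.62 to 16.9 CPM with IL-1β, nearly all of it *CD14*. The 3 fibroblast markers summed to at most 4.14 CPM and the 2 endothelial markers found to at most 0.348 CPM, and the part of any marker in the results was not tested.

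*PLAU* and *PLAT*, the genes of both plasminogen activators, rose during IL-1β exposure, by 2.16-fold and 2.06-fold on average over the 3 time points, and were 1.47-fold and 1.63-fold above the controls on average after withdrawal. The mean after withdrawal kept an adjusted p under 0.05 in 8 of 11 alternative settings for *PLAU* and in 11 of 11 for *PLAT*. *PLAUR*, the urokinase receptor gene, rose by 2.23-fold during exposure, and after withdrawal its mean response was 1.23-fold and not past the test. The inhibitor gene *SERPINE2* rose by 1.75-fold during exposure and was 1.46-fold higher after withdrawal. *SERPINB2* was at or near 0 in all 36 libraries. Values for each gene follow, with the 3 libraries of a group always given in the order of replicates 1, 2 and 3.

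**Figure D1:**
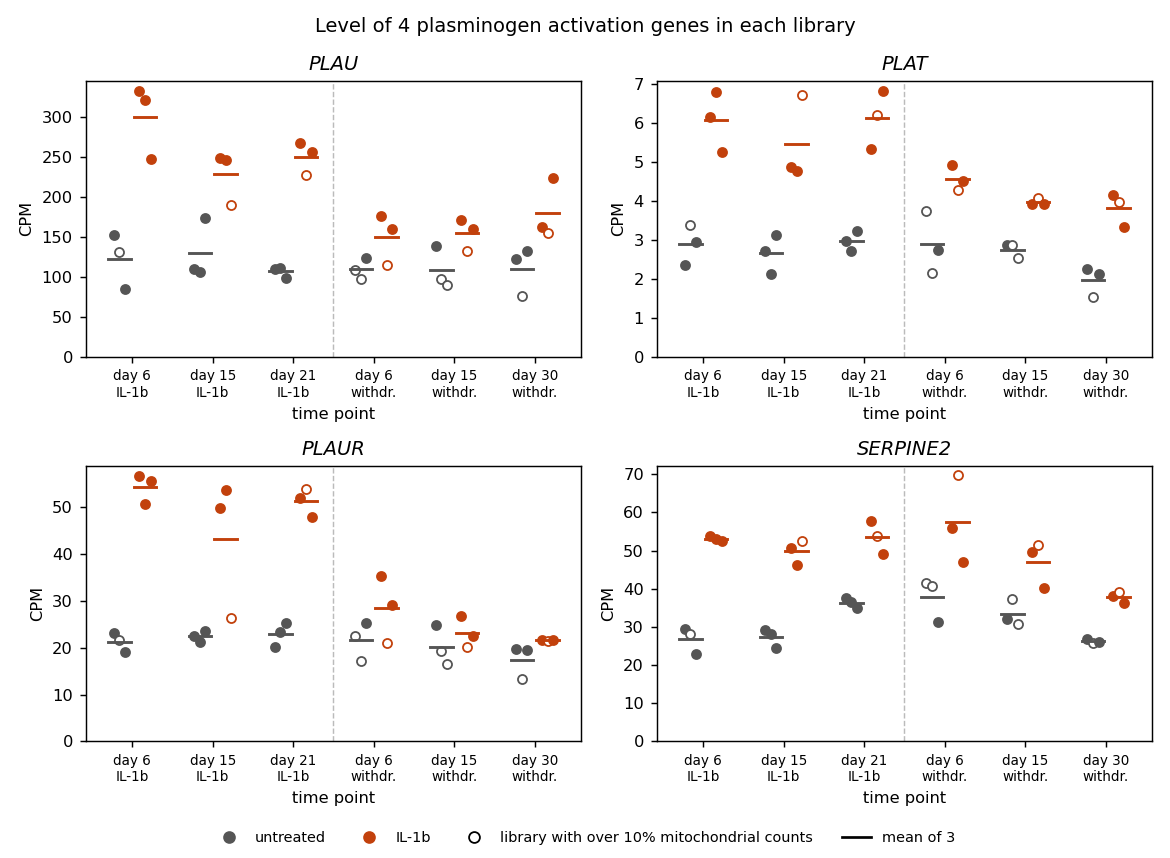
Level of each tested gene in CPM (vertical axes, from 0) in the 36 libraries at the 6 time points, untreated in grey and IL-1β in orange, with short bars at the mean of 3 libraries and open circles for the 11 libraries with over 10% mitochondrial counts. During exposure all 9 IL-1β libraries lie above all 9 control libraries for each of the 4 genes, and after withdrawal 8 of 9 do so for *PLAT*, 7 for *PLAU*, 5 for *SERPINE2* and 3 for *PLAUR*.

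*PLAU* (ENSG00000122861) lies on the plus strand of GRCh37 chr10:75668935-75677254. At day 6 of exposure its level was 152, 132 and 85.2 CPM in untreated control cells and 332, 321 and 247 CPM with IL-1β. On day 15 the controls were at 109.9, 107 and 174 CPM and the IL-1β libraries at 249, 247 and 189 CPM. On day 21 the controls were at 110.0, 112 and 98.6 CPM and the IL-1β libraries at 267, 228 and 256 CPM. The IL-1β libraries lay above the controls at all 3 time points without overlap, and the gap was narrowest on day 15, between control replicate 3 at 174 CPM and IL-1β replicate 3 at 189 CPM. The log2 fold change was 1.29 (SE 0.23, edgeR adjusted p = 0.000545) on day 6, 0.81 (SE 0.23, adjusted p = 0.0290) on day 15 and 1.23 (SE 0.23, adjusted p = 0.000703) on day 21. The day 15 value passed an adjusted p under 0.05 in 6 of 12 alternative settings, with adjusted p-values between 0.000830 and 0.462. Without replicate 1, 2 or 3 of every group it was 0.66 (adjusted p = 0.462), 0.65 (adjusted p = 0.148) or 1.20 (adjusted p = 0.00501). The day 21 value was lost without replicate 1 (1.21, adjusted p = 0.0724). Without the 11 libraries of high mitochondrial share the 3 values were 1.36, 0.93 and 1.31.

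On day 6 after withdrawal it was 109, 97.7 and 124 CPM in the controls and 176, 114 and 160.2 CPM in the cells exposed before. On day 15 after withdrawal the controls were at 138, 97.3 and 89.8 CPM and the exposed cells at 171, 132 and 160 CPM. On day 30 after withdrawal the controls were at 122, 75.7 and 132 CPM and the exposed cells at 163, 154 and 223 CPM. On days 6 and 15 the ranges overlapped, with 2 of 3 exposed libraries above the highest control, and on day 30 all 3 were above it. The log2 fold changes of 0.45, 0.51 and 0.71 (SE 0.23 each) did not pass the test at any single time point, with edgeR adjusted p-values of 0.580, 0.507 and 0.179. Their mean of 0.56 (SE 0.13, adjusted p = 0.00614) did, and 7 of the 9 exposed libraries lay above all 9 controls of this phase. That mean no longer passed without replicate 1 (0.59, adjusted p = 0.122), without replicate 2 (0.54, adjusted p = 0.0577) or without the libraries of high mitochondrial share (0.45, adjusted p = 0.0872). *PLAU* itself was lower in those libraries, with control levels of 75.7 to 132 CPM (median 97.5) in 6 of them and 85.2 to 174 CPM (median 117) in the other 12. Most of those 6 were collected after withdrawal, and the part of the mitochondrial share in the result was not tested.

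The antisense noncoding gene *C10orf55* covers 31.0% of the exonic bases of *PLAU* on the opposite strand. It had 24.3 reads per library on average and at most 64, against 588 to 6242 for *PLAU*. The strand setting of the counting is not stated, so reads of this pair cannot be told apart with certainty.

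*PLAT* (ENSG00000104368) lies on the minus strand of chr8:42032236-42065227 and was the least abundant of the tested genes, with 12 to 166 reads per library. On day 6 of exposure it was at 2.35, 3.39 and 2.95 CPM in the controls and at 6.14, 6.80 and 5.26 CPM with IL-1β. On day 15 it was at 2.72, 2.11 and 3.12 CPM in the controls and at 4.86, 4.76 and 6.72 CPM with IL-1β. On day 21 it was at 2.96, 2.71 and 3.23 CPM in the controls and at 5.32, 6.21 and 6.81 CPM with IL-1β. The ranges were apart at each time, and the response hardly varied among them, with log2 fold changes of 1.06, 1.03 and 1.04 (SE 0.20, 0.20 and 0.19) and edgeR adjusted p-values of 0.000762, 0.000837 and 0.000610. These values lie just above the 2-fold threshold, so small changes of setting moved them below it on day 15 (0.86 without the libraries of high mitochondrial share, adjusted p = 0.00384). Without replicate 1 the values were 0.94, 1.15 and 1.14, with adjusted p-values of 0.194, 0.0523 and 0.0511.

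Of the 4 tested genes, *PLAT* had the largest mean response after withdrawal. On day 6 after withdrawal it was at 3.74, 2.16 and 2.75 CPM in the controls and at 4.92, 4.29 and 4.52 CPM in the cells exposed before. On day 15 it was at 2.86, 2.86 and 2.54 CPM in the controls and at 3.91, 4.07 and 3.91 CPM in the exposed cells. On day 30 it was at 2.26, 1.54 and 2.11 CPM in the controls and at 4.14, 3.97 and 3.32 CPM in the exposed cells. The exposed libraries were above the controls of their own day at all 3 time points, and 8 of the 9 were above all 9 controls of the phase. The log2 fold change was 0.69 (SE 0.20, edgeR adjusted p = 0.0688), 0.52 (SE 0.20, adjusted p = 0.336) and 0.92 (SE 0.20, adjusted p = 0.0166), and the mean of the 3 was 0.71 (SE 0.12, adjusted p = 9.00e-05). The mean kept an adjusted p under 0.05 in 11 of 11 alternative settings. The day 30 value kept it in 6 of 12 and lost it without replicate 1 (0.95, adjusted p = 0.497), replicate 2 (0.76, adjusted p = 0.567), replicate 3 (1.03, adjusted p = 0.0887) or the libraries of high mitochondrial share (0.76, adjusted p = 0.116). The untreated cells of day 30 were 0.52 lower on the log2 scale than those of day 6 of exposure (SE 0.21, unadjusted p = 0.0176, adjusted p = 1.00), which did not pass the test.

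*PLAUR* (ENSG00000011422), on the minus strand of chr19:44150247-44174699, had the highest mean response during exposure of the 4 tested genes. On day 6 of exposure it was at 23.1, 21.7 and 19.1 CPM in the controls and at 56.8, 50.8 and 55.6 CPM with IL-1β. On day 15 the controls were at 22.5, 21.1 and 23.6 CPM and the IL-1β libraries at 49.9, 53.7 and 26.3 CPM. On day 21 the controls were at 20.1, 23.3 and 25.4 CPM and the IL-1β libraries at 52.1, 54.0 and 48.1 CPM. One library stood apart from its group: IL-1β replicate 3 of day 15, with 26.3 CPM and a mitochondrial share of 15.3%, lay close to the controls. The log2 fold change was 1.35 (SE 0.21, edgeR adjusted p = 9.44e-05) on day 6, 0.95 (SE 0.21, adjusted p = 0.00376) on day 15 and 1.16 (SE 0.21, adjusted p = 0.000432) on day 21. When the libraries of high mitochondrial share, that library among them, were left out, the day 15 value was 1.21 (adjusted p = 3.61e-07) and past the 2-fold threshold, and without replicate 3 it was 1.26 (adjusted p = 0.00441). Without replicate 1 the day 15 and day 21 values were 0.86 (adjusted p = 0.217) and 1.07 (adjusted p = 0.0864), and without replicate 2 the day 15 value was 0.75 (adjusted p = 0.0705). The day 15 value passed an adjusted p under 0.05 in 8 of 12 alternative settings.

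After withdrawal *PLAUR* was near its control level. On day 6 after withdrawal it was at 22.6, 17.2 and 25.3 CPM in the controls and at 35.3, 21.0 and 29.1 CPM in the cells exposed before. On day 15 the controls were at 24.9, 19.4 and 16.5 CPM and the exposed cells at 26.7, 20.2 and 22.5 CPM. On day 30 the controls were at 19.6, 13.3 and 19.6 CPM and the exposed cells at 21.7, 21.5 and 21.7 CPM. The ranges overlapped on days 6 and 15, and on day 30 the exposed libraries lay just above the highest control. The log2 fold change was 0.39, 0.19 and 0.30 (SE 0.21 each), with edgeR adjusted p-values of 0.620, 0.880 and 0.778. The mean of the 3 was 0.29 (95% confidence interval 0.044 to 0.55, adjusted p = 0.1697). Leaving out the libraries of high mitochondrial share gave a mean of 0.17 (adjusted p = 0.327) and a day 15 value of -0.011. *PLAUR* was lower in those libraries, with a median of 18.3 CPM in 6 control libraries against 22.8 CPM in the other 12, and of 21.5 CPM in 5 IL-1β libraries against 48.1 CPM in the other 13, although most were collected after withdrawal. The part of this share in the result was not tested.

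*SERPINE2* (ENSG00000135919), on the minus strand of chr2:224839762-224904035, was higher at an adjusted p under 0.05 at 5 of the 6 time points, by amounts below 2-fold. On day 6 of exposure it was at 29.5, 28.0 and 22.9 CPM in the controls and at 53.7, 53.0 and 52.5 CPM with IL-1β. On day 15 it was at 29.0, 28.2 and 24.5 CPM in the controls and at 50.8, 46.3 and 52.6 CPM with IL-1β. On day 21 it was at 37.4, 36.6 and 35.0 CPM in the controls and at 57.8, 53.7 and 49.0 CPM with IL-1β. The groups were apart throughout, and the mean IL-1β levels were between 49.9 and 53.5 CPM while the control level of day 21 was above those of days 6 and 15. The log2 fold change was 0.99 (SE 0.14, edgeR adjusted p = 1.60e-05), 0.87 (SE 0.14, adjusted p = 6.01e-05) and 0.56 (SE 0.14, adjusted p = 0.00817). The day 6 value lay so close to the threshold that it exceeded 2-fold in 8 of 12 alternative settings, among them the fit without the libraries of high mitochondrial share (1.04, adjusted p = 8.20e-06). The day 21 value kept an adjusted p under 0.05 in 9 of 12 alternative settings. It no longer passed the test without replicate 1 (adjusted p = 0.468) or replicate 2 (adjusted p = 0.115), while its size was 0.53 to 0.59 with 1 replicate left out.

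On day 6 after withdrawal *SERPINE2* was at 41.5, 40.7 and 31.3 CPM in the controls and at 55.9, 69.9 and 46.9 CPM in the cells exposed before. On day 15 it was at 32.0, 37.3 and 30.8 CPM in the controls and at 49.5, 51.4 and 40.2 CPM in the exposed cells. On day 30 it was at 26.8, 25.9 and 26.0 CPM in the controls and at 38.1, 39.1 and 36.3 CPM in the exposed cells. The exposed libraries were above the controls of their day at each time point, although the control level itself moved, so that 5 of the 9 lay above all 9 controls of the phase. The log2 fold change was 0.61 (SE 0.14, edgeR adjusted p = 0.00914), 0.49 (SE 0.14, adjusted p = 0.0689) and 0.53 (SE 0.14, adjusted p = 0.0466). The mean was 0.54 (SE 0.08, adjusted p = 1.53e-05), and it kept an adjusted p under 0.05 in 11 of 11 alternative settings. Of 12 alternative settings, the day 6 value kept an adjusted p under 0.05 in 8 and the day 30 value in 5. The day 6 value no longer passed without replicate 1 (0.70, adjusted p = 0.390) or replicate 2 (0.48, adjusted p = 0.347). The day 30 value, 0.49 to 0.53 with 1 replicate left out, had adjusted p-values of 0.886, 0.718 and 0.0770 without replicates 1, 2 and 3, and was 0.50 (adjusted p = 0.0778) without the libraries of high mitochondrial share. In contrast to *PLAU*, *SERPINE2* was higher in the libraries of high mitochondrial share, at 25.9 to 41.5 CPM (median 34.1) in 6 control libraries against 22.9 to 37.4 CPM (median 29.3) in the other 12. Most of those 6 were collected after withdrawal, and the part of this share in the result was not tested.

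*SERPINB2* (ENSG00000197632, plus strand of chr18:61538926-61571122) had 4 reads in all 36 libraries together, 3 in IL-1β libraries and 1 in a control library, and no library had more than 1. In the 32 libraries without a read, the upper limit that a count of 0 allows, 3 counts, corresponds to 0.119 to 0.387 CPM, so a response of this gene was not detectable at this depth, and no fold change is given.

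Across the tested genes of the set, 4 of 4 were higher at an adjusted p under 0.05 on each of days 6, 15 and 21 of exposure, where 2.29%, 3.32% and 3.31% of all genes tested were higher by the same rule. With a fold change over 2 as well, the study's threshold for differential expression, 3 were called on day 6 (*PLAU*, *PLAT* and *PLAUR*, against 1.52% of all genes), 1 on day 15 (*PLAT*, against 1.94%) and 3 on day 21 (*PLAU*, *PLAT* and *PLAUR*, against 2.19%). Over the alternative settings and thresholds the day 15 count was 0 to 4, with 3 without replicate 3 and 0 without replicate 1 or 2, and the day 21 count was 0 to 4, with 0 without replicate 1. The counts of 4 are those at the adjusted p alone. After withdrawal edgeR called 0, 0 and 0 members on days 6, 15 and 30 with both thresholds, as did DESeq2, where 1.08%, 0.594% and 0.433% of all genes were higher. An unadjusted p under 0.05 was reached by 2, 3 and 3 members, and by 9.59%, 8.75% and 8.35% of all genes in either direction. At an adjusted p under 0.05 alone edgeR called 1 (*SERPINE2*), 0 and 2 (*PLAT* and *SERPINE2*), where 1.62%, 0.85% and 0.683% of all genes were higher. The IL-1β libraries of a time point lay above all its controls for 4, 4 and 4 of the 4 members during exposure, where 10.6%, 11.5% and 13.8% of all genes did, and for 2, 2 and 4 members after withdrawal, where 5.51%, 6.02% and 6.78% did. Over a whole phase, 4 members had all 9 exposed libraries above all 9 controls during exposure, as did 2.55% of all genes, and 0 after withdrawal, as did 0.719%. The members were chosen with earlier results of these data known, so these shares describe the set.

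**Figure D2:**
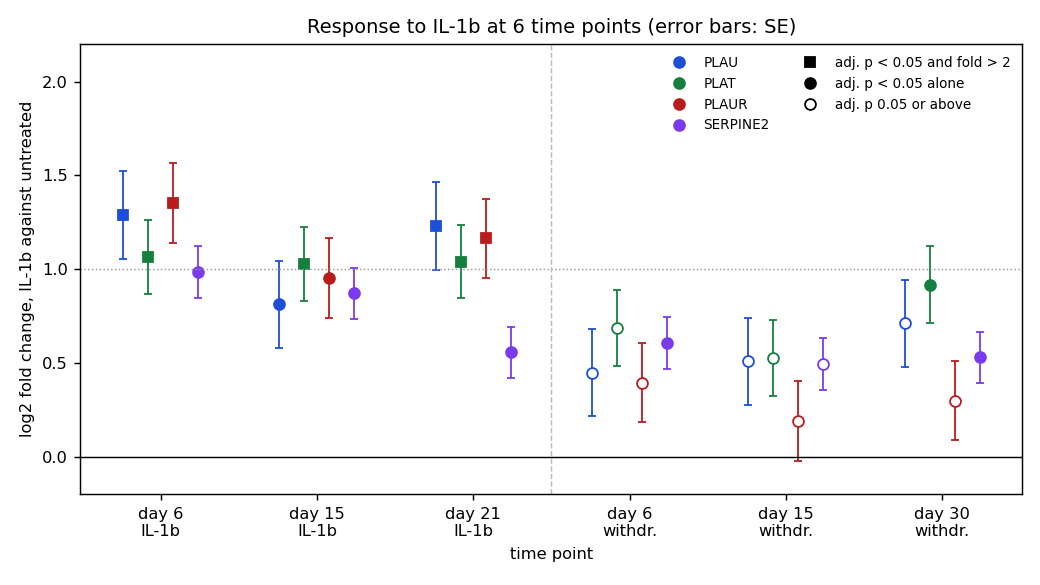
Log2 fold change of IL-1β against untreated cells (vertical axis) for the 4 tested genes at the 6 time points, with standard errors from the fit as bars, squares for values past both thresholds, filled circles for an adjusted p under 0.05 alone and open circles for the rest. The values lie between 0.56 and 1.35 during exposure and between 0.19 and 0.92 after withdrawal, with *PLAUR* the lowest of the 4 at each time point after withdrawal.

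To ask whether a response was smaller after withdrawal than during exposure, the difference between the mean responses of the 2 phases was tested. *PLAUR* fell by 0.86 on the log2 scale (SE 0.17, 95% confidence interval -1.21 to -0.51, edgeR adjusted p = 0.00302), where 1.12% of all genes had a smaller response after withdrawal at an adjusted p under 0.05. Its mean response after withdrawal was 25.5% of that during exposure on the log2 scale. The difference for *PLAU* was -0.55 (-0.94 to -0.17, adjusted p = 0.151), which left 50.1% of the exposure response. For *PLAT* it was -0.33 (-0.67 to -0.00095, adjusted p = 0.443) and for *SERPINE2* -0.26 (-0.49 to -0.034, adjusted p = 0.335), which left 67.9% and 67.5%. Thus the difference passed the test for 1 of 4 members. The intervals of the other 3 lay below 0, but they are not adjusted for the number of genes tested. The share of all genes with such an interval is not given, so a smaller response of these 3 was not established. The *PLAUR* difference was -1.08 (adjusted p = 2.84e-06) when the 11 libraries were left out. It was lost without replicate 1 (-0.83, adjusted p = 0.246) and with scaling by total counts only (-0.76, adjusted p = 0.142), which moved the median of all genes in this comparison by 0.12. The *PLAU* difference passed the test without the libraries of high mitochondrial share (-0.76, adjusted p = 0.0325). Whether the difference between phases itself varies from one member to another was not tested.

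**Figure D3:**
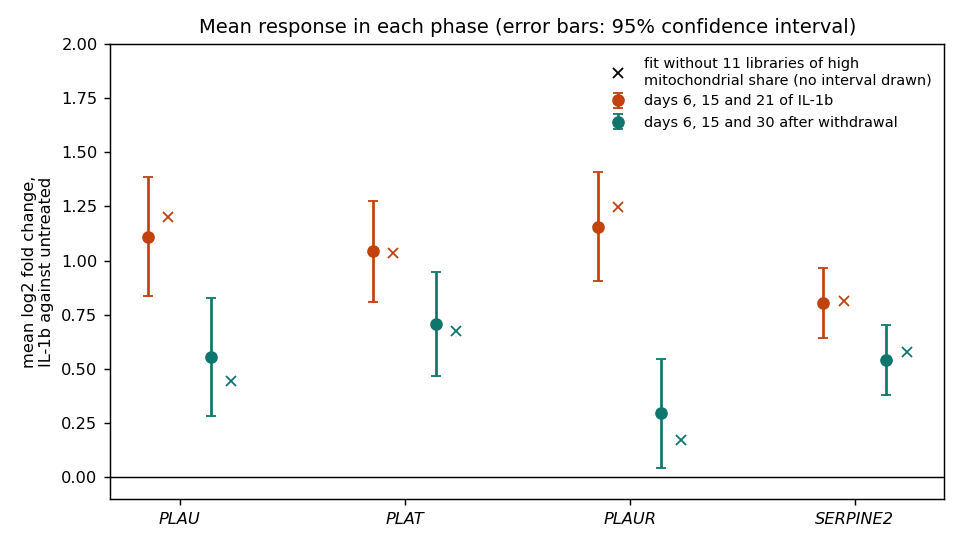
Mean log2 fold change of IL-1β against untreated cells (vertical axis) over the 3 time points of exposure (orange) and the 3 after withdrawal (teal) for the 4 tested genes, with 95% confidence intervals as bars and crosses for the fit without the 11 libraries of high mitochondrial share. *PLAUR* goes from 1.16 to 0.29, *PLAU* from 1.11 to 0.56, *PLAT* from 1.04 to 0.71 and *SERPINE2* from 0.80 to 0.54.

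Single time points gave wider intervals. Between day 6 and day 21 of exposure, the response changed by -0.06 for *PLAU* (95% confidence interval -0.72 to 0.61), by -0.03 for *PLAT* (-0.59 to 0.54), by -0.19 for *PLAUR* (-0.80 to 0.42) and by -0.43 for *SERPINE2* (-0.82 to -0.034), and edgeR and DESeq2 called 0 of the 4, where edgeR called 0.0104% of all genes. *SERPINE2* alone had an unadjusted p under 0.05 there (0.0342, adjusted p = 1.00). Day 30 after withdrawal was then set against day 21 of exposure, where edgeR called 0.73% of all genes. The *PLAUR* response changed by -0.87 (-1.48 to -0.25, edgeR adjusted p = 0.337), and by -0.99 (adjusted p = 0.00436) without the libraries of high mitochondrial share. The other 3 changed by -0.52 (*PLAU*), -0.12 (*PLAT*) and -0.03 (*SERPINE2*), none with an unadjusted p under 0.05, and edgeR and DESeq2 called 0 members. Among untreated cells, day 30 after withdrawal against day 6 of exposure gave 0 calls among the members by both tools, 0.0104% of all genes by edgeR, 1 member (*PLAT*, above) with an unadjusted p under 0.05, and log2 differences of -0.16 for *PLAU*, -0.28 for *PLAUR* and -0.03 for *SERPINE2*.

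When the 12 groups were ordered by mean CPM, *PLAU* ran from 300.3 ± 46.2 CPM (SD, n = 3) on day 6 of IL-1β to 107 ± 7.11 CPM in the day 21 controls. The 3 exposure groups came first, the 3 groups after withdrawal next and the 6 control groups last. Neighbours in this order differed by more than the larger of their SDs at 2 of 11 steps, between days 6 and 21 of IL-1β and between day 15 of IL-1β and day 30 after withdrawal. *PLAT* kept the same arrangement, from 6.12 ± 0.75 CPM on day 21 of IL-1β to 1.97 ± 0.378 CPM in the day 30 controls, with 3 such steps, 1 of them between the lowest exposed group and the highest control group. For *PLAUR*, from 54.4 ± 3.18 CPM on day 6 of IL-1β to 17.5 ± 3.67 CPM in the day 30 controls, 0 of 11 steps exceeded the larger SD, and the exposed group of day 30 after withdrawal ranked below 3 control groups. The *PLAUR* step from day 15 of IL-1β to day 6 after withdrawal fell just short, at 14.83 CPM against an SD of 14.84 CPM. That SD is of the day 15 group, with replicates at 49.9, 53.7 and 26.3 CPM. *SERPINE2* was highest on day 6 after withdrawal (57.5 ± 11.6 CPM), which did not differ from days 21 and 6 of IL-1β (53.5 ± 4.400 and 53.1 ± 0.587 CPM) beyond this spread, and lowest in the day 30 controls (26.2 ± 0.505 CPM).

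Levels of different genes can be set side by side only per length, here as CPM per kilobase of the canonical transcript. On day 6 the untreated cells held 52.5 ± 14.6 CPM per kilobase of *PLAU* (SD, n = 3), 15.6 ± 1.49 of *PLAUR*, 12.04 ± 1.55 of *SERPINE2* and 0.947 ± 0.1703 of *PLAT*. With IL-1β on that day the levels were 128 ± 19.7, 39.8 ± 2.32, 23.8 ± 0.264 and 1.98 ± 0.252 CPM per kilobase, in the same order. Urokinase was thus the far more abundant activator transcript in both. In IL-1β cells the mean of *PLAUR* exceeded that of *SERPINE2* per length at days 6, 15 and 21 of exposure (39.8 against 23.8, 31.6 against 22.4 and 37.6 against 24.1 CPM per kilobase). On day 15 the gap was below the larger SD, which was 10.9 for *PLAUR*. After withdrawal the mean of *SERPINE2* was the higher, at 25.9 ± 5.22 against 20.8 ± 5.24 on day 6, 21.1 ± 2.70 against 16.9 ± 2.42 on day 15 and 17.0 ± 0.649 against 15.8 ± 0.108 on day 30, with a gap below the larger SD on day 6. In untreated cells the mean of *PLAUR* was the higher at days 6, 15 and 21 (15.6 against 12.04, 16.4 against 12.2 and 16.7 against 16.3). That of *SERPINE2* was the higher at days 6 and 15 after withdrawal (17.0 against 15.8 and 14.99 against 14.8) and that of *PLAUR* at day 30 (12.8 against 11.8). The gap exceeded the larger SD on days 6 and 15 of exposure only, so the order at the other times was not settled. The order depends on the length used: with the union of all annotated exons, a choice made after seeing the data, *PLAUR* was the higher in all 6 untreated groups, and in IL-1β cells after withdrawal the means lay close together on days 6 and 15 (6.38 for *PLAUR* against 6.42 and 5.19 against 5.25), with *PLAUR* the higher on day 30 (4.85 against 4.23).

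Beyond the 5 genes, 21 others of the pathway are described by role, of which 14 could be tested. At single time points edgeR called 0 of the 14 in either direction at an adjusted p under 0.05, as did DESeq2. An unadjusted p under 0.05 was reached by 3, 1 and 3 of them on days 6, 15 and 21 of exposure, and by 11.8%, 17.1% and 13.7% of all genes. After withdrawal it was reached by 1, 2 and 4 of them on days 6, 15 and 30, beside the shares of all genes given above (9.59%, 8.75% and 8.35%). The values that passed the test were means over a phase.

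Of the zymogen and its activators, the activators *PLAU* and *PLAT* were higher at an adjusted p under 0.05 on days 6, 15 and 21 of exposure, and plasminogen itself (*PLG*) had at most 18 reads in a library and passed no test. Of the 6 proteases that can activate pro-urokinase, 3 were tested, and *CTSL* and *CTSB* reached an unadjusted p under 0.05 at 1 or more single time points without passing the adjustment. The lysosomal cathepsin gene *CTSL* was higher over the mean of exposure (log2 fold change 0.47, SE 0.13, edgeR adjusted p = 0.0101) and *CTSB* over the mean after withdrawal (0.60, SE 0.17, adjusted p = 0.0242), the latter lost without the libraries of high mitochondrial share (0.42, adjusted p = 0.0937). Of 9 genes of receptors, binding sites and clearance, *PLAUR* was called on single days of exposure and the other 8 were not. Over the mean of exposure *IGF2R*, a clearance receptor that also binds plasminogen, was higher (0.39, SE 0.10, adjusted p = 0.00687), and both subunits of the annexin A2 complex, a plasminogen binding site, were lower, *ANXA2* by a log2 fold change of -0.21 (SE 0.07, adjusted p = 0.0269) and *S100A10* by -0.34 (SE 0.11, adjusted p = 0.0248). *IGF2R* was also higher over the mean after withdrawal (0.49, SE 0.10, adjusted p = 0.00154). Of 8 inhibitors described, 3 were tested, *SERPINE2* was higher, and *SERPINF2*, which encodes the plasmin inhibitor alpha 2-antiplasmin and averaged below 1 CPM in each group, was lower over the mean of exposure (-1.07, SE 0.35, adjusted p = 0.0351). These means depended on the settings. Counting the reported fit, an adjusted p under 0.05 was reached in 10 of 12 settings for *CTSL*, 7 of 12 for *CTSB*, 7 of 12 for *ANXA2*, 9 of 12 for *S100A10*, and 6 of 10 for *SERPINF2*, and for *IGF2R* in 9 of 12 during exposure and 11 of 12 after withdrawal. Without replicates 1, 2 and 3 in turn, *ANXA2* had adjusted p-values of 0.305, 0.255 and 0.230 and *CTSB* of 0.264, 0.0635 and 0.113. *S100A10* was lost without replicate 1 (-0.30, adjusted p = 0.344) and replicate 2 (-0.27, adjusted p = 0.214), *CTSL* without replicate 1 (0.52, adjusted p = 0.1604) and replicate 3 (0.41, adjusted p = 0.0870), and *SERPINF2* without replicate 1 (-0.99, adjusted p = 0.299) and replicate 2 (-1.08, adjusted p = 0.0773). *IGF2R* was lost during exposure without replicate 2 (0.37, adjusted p = 0.0540) and replicate 3 (0.41, adjusted p = 0.0788), and after withdrawal without replicate 3 (0.49, adjusted p = 0.0520). The 8 genes of the lists with too few reads, *KLKB1*, *ST14*, *HPN*, *SERPINB2*, *SERPINA5*, *A2M*, *PZP* and *CPB2*, had at most 8 reads in any library.

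Counted over the 21 genes that are not among the 5, 2 of 14 tested genes were higher and 3 lower at an adjusted p under 0.05 over the mean of exposure, where 7.54% of all genes were higher and 7.81% lower. After withdrawal 2 were higher and 0 lower by edgeR at an adjusted p under 0.05, where 4.43% of all genes were higher and 3.28% lower. DESeq2 called 2 at the same threshold. An unadjusted p under 0.05 in either direction was reached by 6 of the 14 over the mean of exposure and by 7 over the mean after withdrawal. The shares of all genes by that rule are not given for these means, so nothing is drawn from these counts. The median log2 fold change of the 14 was -0.09 during exposure and 0.22 after withdrawal, against -0.01 and 0.01 over all genes. The lists were chosen with earlier results known, and the counts describe these genes.

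**Figure D4:**
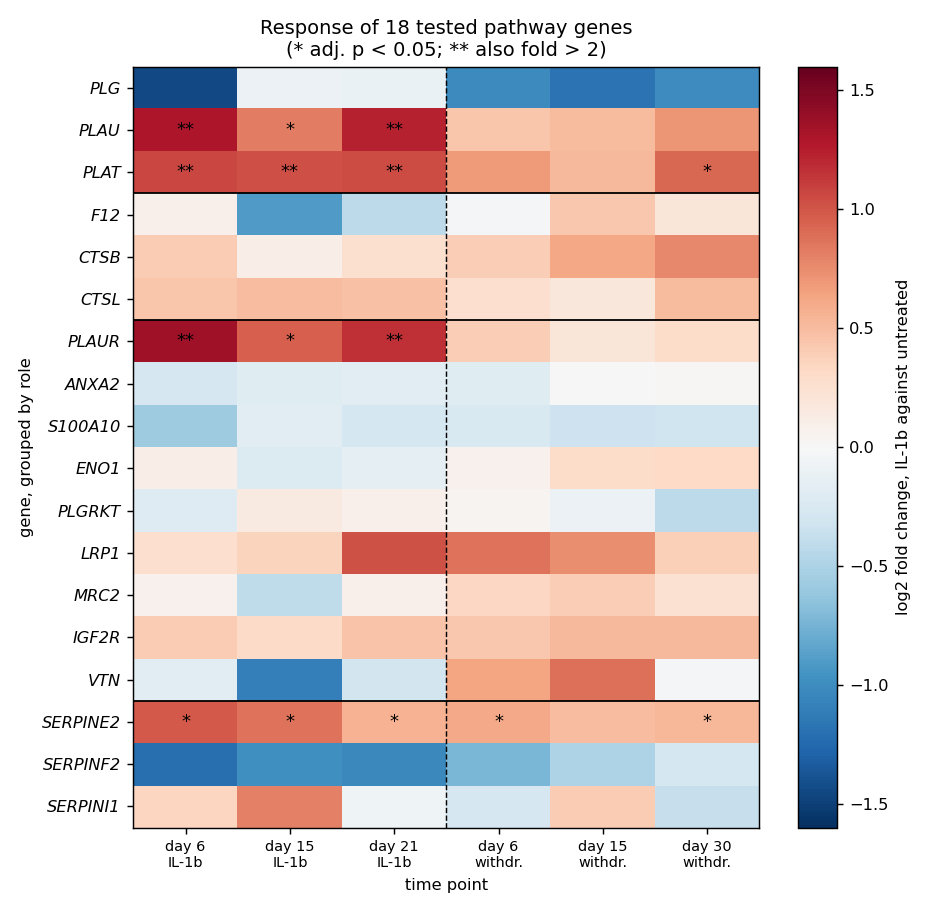
Log2 fold change of IL-1β against untreated cells (colour scale) for 18 tested genes of the pathway lists (rows, grouped from top to bottom as zymogen and activators, proteases that activate pro-urokinase, receptors and binding sites, and inhibitors) at the 6 time points (columns). One star marks an adjusted p under 0.05 and 2 stars a fold change over 2 as well, and the stars fall on *PLAU*, *PLAT*, *PLAUR* and *SERPINE2*.

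The genes whose responses were most like those of the called members were sought by the root mean square difference of the 6 log2 fold changes, among 1209 genes that passed both thresholds at any of the 6 times. For *PLAU* they were *LTBP2*, at a difference of 0.12, and the pseudogenes *ELL2P1* (0.15) and *AKR1B1P3* (0.18), whose reads may in part belong to near-identical copies. *LTBP2*, a matrix protein related to those that bind latent TGF-β, had log2 fold changes of 1.16, 0.84 and 1.04 during exposure and 0.44, 0.57 and 0.54 after withdrawal. For *PLAUR* they were *ZC3H12C* (0.16), an RNase of the regnase family, *IFNGR1* (0.17), a subunit of the interferon gamma receptor, and *OTUB2* (0.17), a deubiquitinase. *ZC3H12C* had log2 fold changes of 1.25, 1.22 and 1.07 during exposure and 0.26, 0.07 and 0.16 after withdrawal. For *PLAT* they were *FHDC1* (0.12), *CHST11* (0.12), a chondroitin sulfotransferase, and *CCDC71L* (0.13). *FHDC1* had 1.22, 1.02 and 1.09 during exposure and 0.80, 0.64 and 0.74 after withdrawal.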

How the data were processed

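The authors made single-end libraries with a stranded mRNA kit, aligned the reads to GRCh37 and deposited raw read counts per Ensembl gene, 1 table for each of 36 libraries. Per the submitters' processing notes the tools were bcl2fastq 2.17, TopHat2 2.0.14, Bowtie2 2.2.5 and HTSeq 0.6.1. The annotation release and strand setting are not given in the sources used here. The 5 summary lines of each table (8.48% to 18.6% of reads on no gene, 2.62% to 4.18% ambiguous) were left out.

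Groups and replicate numbers came from the sample labels. Counts were filtered by edgeR's filterByExpr over the 12 groups, scaled by TMM and fitted in 1 quasi-likelihood model with the groups as terms (R 4.3.3, edgeR 4.0.16, limma 3.58.1, 24 residual degrees of freedom). Benjamini-Hochberg adjustment ran over 19180 genes in each comparison. Calls required an adjusted p below 0.05 and, at single time points, also more than a 2-fold change, as in the study's methods. SEs and 95% intervals were derived from the fit, and intervals and floors (3 counts) cover counting error or library spread only. CPM use the same scaling.

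Alternatives were DESeq2 1.42.0 (size factors, and its Wald test), total counts only, no filter, at least 10 counts in every library, separate fits of each time point, the replicate number as a block, each replicate left out, and the libraries with over 10% mitochondrial counts left out or marked by a covariate. On simulated counts for day 21, edgeR recovered 38 of 100 genes with a log2 change of 1 and 77 of 100 with 2 among 18949 genes, with 3 false calls. Recovery and false calls were counted there at an adjusted p below 0.05 alone, without the 2-fold rule.

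Positions and canonical transcript lengths came from GENCODE v44lift37, which matched 55665 of 63677 identifiers. Tables and figures were made with Python 3.11.15, pandas 2.3.3, numpy 2.4.6, scipy 1.17.1 and matplotlib 3.10.9. The members, the pathway lists and the rules were chosen with earlier results of these data known. The members were always named, other listed genes when past both thresholds at any time or, for the means of a phase, past an adjusted p under 0.05, the latter chosen after their values were seen, and the 3 nearest genes for each called member. One listed gene and 1 marker are not reported here.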

Additional observations from a re-analysis of the deposited data

Results flagged for a closer look

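The response of *PLAUR* to IL-1β differed between the phases of the study. Its mean log2 fold change was 1.16 over days 6, 15 and 21 of exposure and 0.29 over days 6, 15 and 30 after withdrawal, and the test of the difference itself gave -0.86 (SE 0.17, edgeR adjusted p = 0.00302). In control libraries the *PLAUR* level spanned 19.1 to 25.4 CPM during exposure and 13.3 to 25.3 CPM after withdrawal, and in IL-1β libraries 26.3 to 56.8 CPM and 20.2 to 35.3 CPM. All 9 exposed libraries lay above all 9 controls in the first phase, as for 2.55% of all genes. In the second phase 3 of 9 lay above them, and all 9 did so for 0.719% of all genes. The difference no longer passed the test without replicate 1 (-0.83, edgeR adjusted p = 0.246) or with scaling by total counts only. *PLAU*, *PLAT* and *SERPINE2* also had smaller mean responses after withdrawal, with differences that did not pass the test in the main fit.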

How the results depend on the processing

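Under every alternative tried, *PLAU*, *PLAT*, *PLAUR* and *SERPINE2* were higher with IL-1β at each time point of exposure and over the mean of exposure, and all 4 means kept an adjusted p under 0.05. With both thresholds kept, counts of members moved by over 1.5 times at 2 of the 6 time points, days 15 and 21 of exposure. On day 15 of IL-1β the count of 1 became 0 with total counts only, with at least 10 counts in every library, with separate fits, and 4 with the adjusted p alone, which also gave 1 on day 6 and 2 on day 30 after withdrawal in place of 0. Leaving out replicates 1 to 3 of every group, which leaves 2 libraries a group, gave 3 to 4 members on day 6, 0 to 3 on day 15 and 0 to 3 on day 21, 0 to 0 at each time after withdrawal, 4 to 4 for the mean of exposure, 2 to 3 for the mean after withdrawal, 0 to 1 for the difference between phases and 0 to 0 for the other contrasts of responses and the control comparison. The fold changes of day 15 lie near the 2-fold threshold. Without replicate 1, *PLAT* on day 15 was over 2-fold (1.15) and missed the adjusted p (edgeR, 0.0523). What moved the counts was not tested.

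The difference between phases was called for 0 members with total counts only, and for 2 (*PLAU* and *PLAUR*) when libraries of high mitochondrial share were left out or marked by a covariate. The same 2 settings called 1 member (*PLAUR*) for day 30 after withdrawal minus day 21, in place of 0. Scaling by total counts moved the median of all genes by 0.19 on day 15 after withdrawal and by 0.12 over the mean after withdrawal.

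Small values that did not pass the test changed sign under some settings. For day 21 minus day 6, leaving out 1 replicate gave -0.20 to 0.027 for *PLAU*, -0.32 to 0.0060 for *PLAUR* and -0.18 to 0.20 for *PLAT*, and the covariate gave 0.19 for *PLAU* and 0.046 for *PLAUR*. For day 30 after withdrawal minus day 21, leaving out 1 replicate gave -0.22 to 0.017 for *PLAT*, and *SERPINE2* was 0.10 with total counts and 0.017 with the covariate. Between control cells, leaving out 1 replicate gave -0.50 to 0.11 for *PLAU* and -0.11 to 0.040 for *SERPINE2*, and leaving out the libraries of high mitochondrial share gave 0.11 and 0.017. *PLAUR* on day 15 after withdrawal was -0.011 in that last setting.

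Same-numbered libraries deviated together in most pairs but not in all: their correlations ran from -0.34 to 0.72, with a mean of 0.28 and 14 of 18 over 0.1. The main fit did not take the numbers to pair the libraries, and whether they share a culture or batch was not tested. In the fit with a replicate block, the counts of members remained 3, 1 and 3 during exposure and 0, 0 and 0 after withdrawal, and at an adjusted p alone *SERPINE2* on day 15 after withdrawal was also called (0.49, adjusted p = 0.0175), while no other call on a member changed. *PLAT*, with 12 to 166 reads a library, and *SERPINB2* were limited by depth.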
